A study of Danio rerio with 6 samples.

Results

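The genes described here are 44 DNA repair and damage response genes, taken by symbol from a fixed list of 6 pathways: the Fanconi anaemia pathway (9 genes), mismatch repair (3), nucleotide excision repair (9), base excision and single-strand break repair (9), end joining (4), and damage kinases and sensors (10). The count table held 35 of the 44 among its 15419 gene symbols. Of these, 31 passed the filter on low counts and were tested within a fit over 11062 genes. The genes were read out in the guts of 5-dpf (days post-fertilization) zebrafish larvae that lacked *il26* and were reared germ-free (*il26*-/- GF, n = 3 libraries), and in germ-free wild-type larvae (WT GF, n = 3). The comparison asks how loss of IL-26, a cytokine, changed the transcripts of these genes in a gut without microbes.

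The *il26* lesion was made by CRISPR/Cas9 in the coding sequence, and WT and *il26*-/- parents descended from the same clutch but were kept in separate tanks. Eggs of both genotypes were bleached and the larvae raised in medium with ampicillin, kanamycin, ceftazidime and chloramphenicol, so both groups carried that treatment. Each library pooled 10 to 15 whole guts, and no cell type was sorted. The labels number the replicates as biological replicates, so p-values measure the spread between pools of guts. Total counts were between 7528412 and 38143258 in *il26*-/- GF and between 21188195 and 29399034 in WT GF, and the 35 genes took 0.0401% to 0.0558% of a library. *il26* itself had 0 counts in all 6 libraries, so it gave no check of the genotype labels. Libraries of one group differed by more than sampling noise (chi-square per degree of freedom of at least 9.54), so none was counted as a duplicate. Levels are given as CPM, counts scaled to a common library size after TMM adjustment of the library totals, and spreads over libraries as log2 CPM with a prior count of 2. CPM is not corrected for transcript length, so levels are compared between libraries and not between genes.

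As background, each pathway deals with a different kind of lesion. Fanconi proteins release crosslinks between the DNA strands, mismatch repair corrects copying errors behind the replication fork, and nucleotide excision repair cuts out bulky lesions such as those made by ultraviolet light. Base excision repair removes small damaged bases and mends nicks, end joining reseals broken ends without a template, and checkpoint kinases halt the cell cycle while damage is present. Several of these genes act at replication forks and are known in mammalian cells to be transcribed mainly around S phase, whereas the subunits of the general transcription factor TFIIH and several ligases are used in resting cells too.

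No member of the list was called different between *il26*-/- GF and WT GF guts by the test used. By edgeR's quasi-likelihood test, 0 of the 31 genes tested had an adjusted p under 0.05, where 0.00904% of all genes tested did, and 0 of 31 had an unadjusted p under 0.05, where 5.32% of all genes did, 3.06% higher and 2.27% lower in *il26*-/- GF. DESeq2 also gave 0 of 31 members by either measure, with 4.18% of all genes under the unadjusted threshold and 0.47% under the adjusted one. So did limma-voom, with 8.05% and 0.00904% of all genes. The smallest p of a member was 0.0884, for *ogg1*. The log2 fold change (*il26*-/- GF over WT GF) was above 0 for 20 members and below 0 for 11, with a median of 0.08, against a median of -0.0011 and 49.6% above 0 over all genes. These are descriptions and not calls, and with scaling by total counts only 27 of 31 were above 0, against 70.8% of all genes. The 95% confidence interval lay within 1 log2 unit of 0 for 21 members and within 0.5 for 10, and it reached beyond 1 log2 unit for the other 10.

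**Figure D1:**
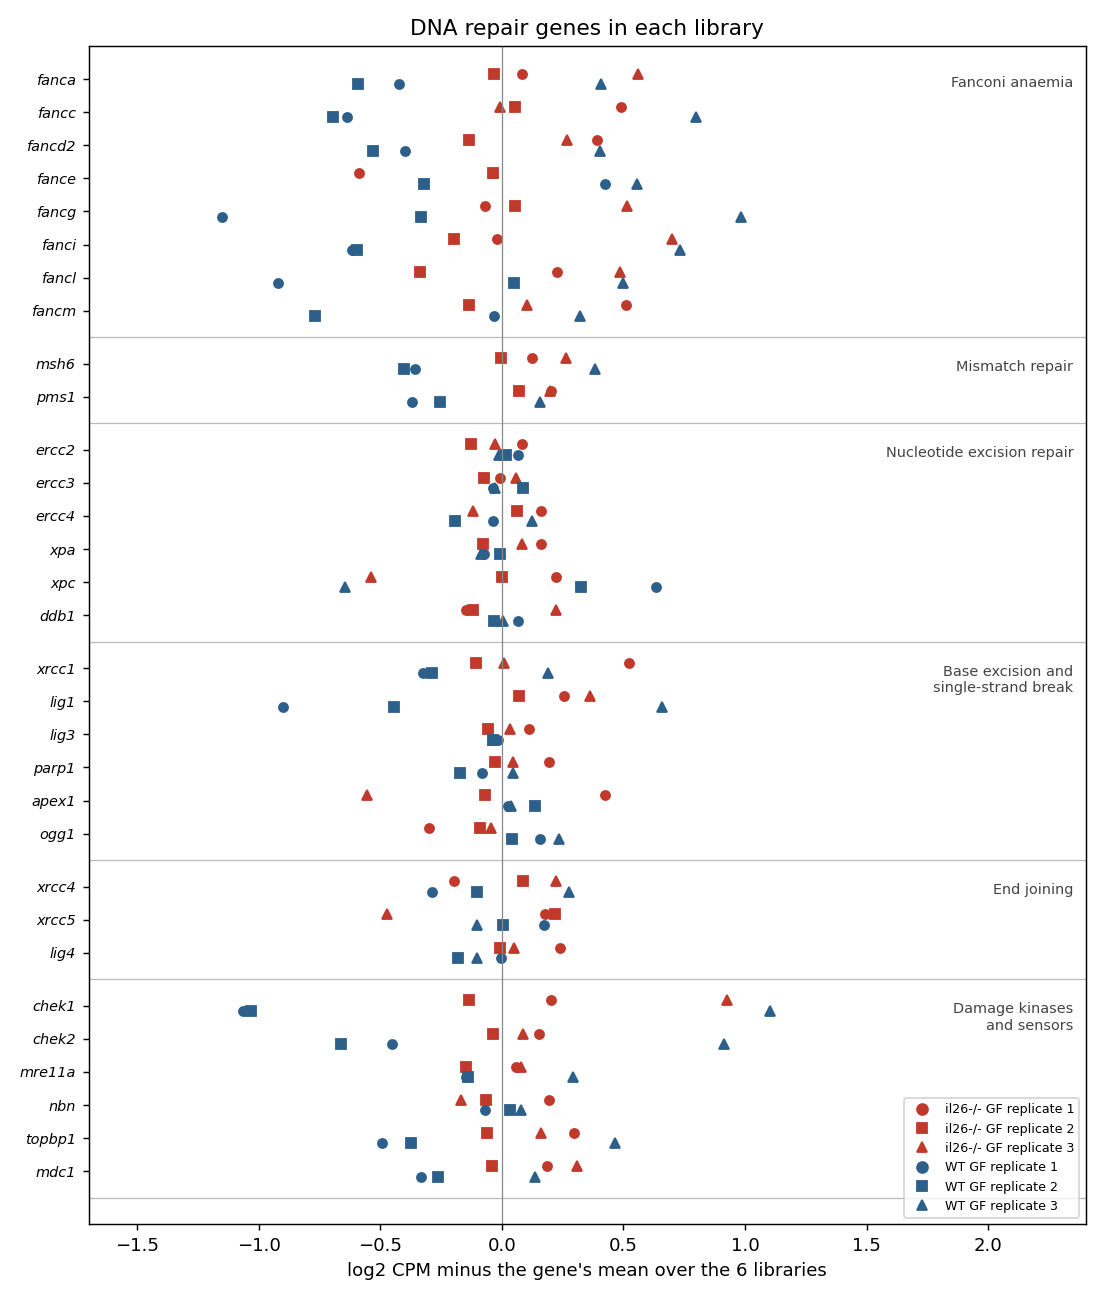
Log2 CPM (prior count 2) of the 31 genes tested, each minus its own mean over the 6 libraries (horizontal axis), by pathway (rows); red points are *il26*-/- GF and blue points, drawn just below them, WT GF, with a triangle for replicate 3. The blue triangle is the highest WT GF library for 22 of the 31 genes, including all 8 Fanconi genes, while the nucleotide excision repair genes other than *xpc* stay close to 0 in every library.

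In the Fanconi anaemia pathway 8 of 9 genes were tested, 7 with a log2 fold change above 0 and 1 below, and none had an unadjusted p under 0.05. *fancd2*, which with its partner *fanci* is monoubiquitinated to start crosslink repair, had 15.6, 10.8 and 14.3 CPM in *il26*-/- GF, against 8.98, 8.20 and 15.7 CPM in WT GF. WT GF replicates 1 and 2 lay below all 3 *il26*-/- GF libraries, and WT GF replicate 3 lay just above them (log2 fold change 0.28, SE 0.27, 95% confidence interval -0.35 to 0.91). *fanci* followed the same division, with 7.50, 6.63 and 12.4 CPM in *il26*-/- GF and 4.93, 5.01 and 12.7 CPM in WT GF. Here replicate 3 was the highest library in each group (log2 fold change 0.21, 95% confidence interval -0.77 to 1.18).

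The core complex, the ubiquitin ligase that modifies *fancd2* and *fanci*, was represented by *fanca*, *fancc*, *fance*, *fancg*, *fancl* and *fancf*. *fanca* had 9.35, 8.62 and 13.1 CPM in *il26*-/- GF and 6.56, 5.82 and 11.7 CPM in WT GF. The groups overlapped through replicate 3 of WT GF alone (log2 fold change 0.35, SE 0.29, 95% confidence interval -0.33 to 1.03). *fance* was the member of the pathway with the smallest p, 0.207, and the only Fanconi gene with a negative log2 fold change, -0.46 (SE 0.33). It had 0.615, 0.944 and 0.943 CPM in *il26*-/- GF and 1.33, 0.760 and 1.47 CPM in WT GF, from 5 to 45 counts a library. *fancg*, with 11 to 58 counts in *il26*-/- GF and 12 to 89 counts in WT GF, had 1.35, 1.48 and 2.07 CPM in *il26*-/- GF, against 0.592, 1.11 and 2.90 CPM in WT GF. All of its *il26*-/- GF libraries fell inside the WT GF range, which spanned the lowest and the highest library of the 6 (log2 fold change 0.05, 95% confidence interval -1.21 to 1.30). *fancc* had 1.72, 1.25 and 1.19 CPM in *il26*-/- GF and 0.740, 0.709 and 2.15 CPM in WT GF. *fancl*, the catalytic subunit, had 0.984, 0.638 and 1.19 CPM in *il26*-/- GF and 0.395, 0.861 and 1.21 CPM in WT GF. *fancm*, a translocase that recruits the complex, had 5.29, 3.34 and 3.96 CPM in *il26*-/- GF and 3.60, 2.13 and 4.63 CPM in WT GF. In all 3 genes WT GF replicate 3 was the highest of the WT GF libraries and the groups overlapped. *fancf* was left out by the filter, with 4 to 15 counts in *il26*-/- GF and 5 to 23 counts in WT GF.

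Mismatch repair was represented by *msh6*, a subunit of the dimer that recognises mispaired bases, and *pms1*, a MutL homologue. *msh6* had 23.4, 21.4 and 25.8 CPM in *il26*-/- GF, against 16.7, 16.2 and 28.0 CPM in WT GF (log2 fold change 0.20, SE 0.22, 95% confidence interval -0.30 to 0.71). *pms1* had 7.75, 7.07 and 7.73 CPM in *il26*-/- GF, against 5.18, 5.62 and 7.50 CPM in WT GF. Its log2 fold change of 0.29 (SE 0.17) had a p of 0.130, and WT GF replicate 3 lay inside the *il26*-/- GF range. *pms2* was absent from the table.

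Nucleotide excision repair was the steadiest pathway over the libraries apart from *xpc*. *ercc3* and *ercc2*, the helicases of TFIIH that open the DNA around a lesion, were among the 3 members with the narrowest range of log2 CPM. *ercc3* had 32.2, 30.8 and 33.7 CPM in *il26*-/- GF and 31.6, 34.3 and 31.7 CPM in WT GF, a range of 0.16 on the log2 scale. The fold change on the log2 scale was -0.02 (95% confidence interval -0.21 to 0.18). *ercc2* had 20.4, 17.6 and 18.9 CPM in *il26*-/- GF and 20.2, 19.5 and 19.1 CPM in WT GF (log2 fold change -0.05, 95% confidence interval -0.28 to 0.17). *ddb1*, an adaptor of the ubiquitin ligase that senses ultraviolet damage, had 77.1, 78.8 and 99.8 CPM in *il26*-/- GF and 89.4, 83.6 and 85.8 CPM in WT GF. The *il26*-/- GF libraries spanned the WT GF ones on both sides, and the difference on the log2 scale was -0.02 (SE 0.12). The sign of these 3 values, and with it the count of 2 of 6 genes above 0, was not fixed: with scaling by total counts only, 5 of 6 were above 0. *ercc4*, the nuclease that cuts on the 5′ side, had 6.98 to 8.49 CPM in *il26*-/- GF and 6.63 to 8.28 CPM in WT GF. *xpa*, which verifies the lesion, had 2.07 to 2.46 CPM in *il26*-/- GF and 2.05 to 2.18 CPM in WT GF. Neither gene's groups were apart.

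*xpc*, which finds helix-distorting lesions and starts global genome repair, had the smallest p of the pathway, 0.429. It had 29.9, 25.6 and 17.6 CPM in *il26*-/- GF, against 39.8, 32.1 and 16.3 CPM in WT GF (log2 fold change -0.27, SE 0.33). WT GF replicates 1 and 2 lay above all 3 *il26*-/- GF libraries, the reverse of their place in 5 of the 8 Fanconi genes tested. For *xpc*, replicate 3 was the lowest library in each group. Of the other genes of the pathway, *ddb2* was listed at 0 in every library, and *ercc5* and *ercc6* were absent from the table. A listed 0 allows up to 3 counts, or 0.0765 to 0.369 CPM depending on the library. Of the table's symbols 1837 were at 0 throughout, among them *cdk1*, which every dividing cell uses, so a symbol at 0 is given only as listed at 0.

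In base excision and single-strand break repair, *ogg1* was the only member of the whole list whose groups did not overlap. *ogg1*, the glycosylase that removes oxidised guanine, had 3.94, 4.57 and 4.71 CPM in *il26*-/- GF, against 5.43, 5.01 and 5.74 CPM in WT GF. Every *il26*-/- GF library lay below every WT GF library, by a small margin (log2 fold change -0.28, SE 0.14, 95% confidence interval -0.61 to 0.05, adjusted p = 1.00). Of all genes tested, 4.81% lay above and 4.83% below without overlap, and 9.64% lay apart in either direction, so 1 of 31 members is not above the share in the table as a whole. *parp1*, the sensor of nicks that makes poly(ADP-ribose), had 43.7, 37.4 and 39.4 CPM in *il26*-/- GF and 36.1, 33.9 and 39.4 CPM in WT GF. WT GF replicate 3 lay among the *il26*-/- GF libraries, the others below them (log2 fold change 0.14, SE 0.10, 95% confidence interval -0.10 to 0.37).

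The ligases of the pathway behaved differently from each other across the libraries. *lig3*, the partner of *xrcc1* in nick sealing, had the second narrowest range of the list, with 39.9, 35.4 and 37.8 CPM in *il26*-/- GF and 36.5, 36.0 and 36.0 CPM in WT GF. The fold change on the log2 scale was 0.06 (95% confidence interval -0.14 to 0.25). *lig1*, the ligase that joins Okazaki fragments at the replication fork, had 22.8, 20.0 and 24.5 CPM in *il26*-/- GF, against 10.2, 14.0 and 30.2 CPM in WT GF. WT GF replicates 1 and 2 were the lowest and replicate 3 the highest of the 6 libraries (log2 fold change 0.29, SE 0.36, 95% confidence interval -0.56 to 1.15). *xrcc1*, the scaffold of nick repair, had 14.6, 9.44 and 10.2 CPM in *il26*-/- GF and 8.09, 8.30 and 11.6 CPM in WT GF. *apex1*, the nuclease that cuts at sites without a base, had 32.2, 22.9 and 16.3 CPM in *il26*-/- GF and 24.4, 26.4 and 24.7 CPM in WT GF, so that its spread lay in the *il26*-/- GF group. *parp2* was listed at 0 throughout, and *ung* and *mutyh* were absent under those symbols. RefSeq's annotation of GRCz12tu gives *ung*, the uracil glycosylase gene, as a synonym of *unga*, which was tested among the other repair genes. *unga* had 5.78, 3.95 and 5.66 CPM in *il26*-/- GF, against 3.60, 2.89 and 5.41 CPM in WT GF (log2 fold change 0.33, SE 0.27, 95% confidence interval -0.31 to 0.96). Its groups overlapped. Without WT GF replicate 3, its highest WT GF library, *unga* lay above without overlap, as 14.3% of all genes did in that fit. Its log2 fold change was then 0.62 (SE 0.24, adjusted p = 0.448). That library was picked by its values, so this is a description and not a separate test.

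In end joining, *lig4*, the ligase that seals the broken ends, had 13.9, 11.7 and 12.2 CPM in *il26*-/- GF, against 11.7, 10.4 and 10.96 CPM in WT GF (log2 fold change 0.18, SE 0.12, 95% confidence interval -0.09 to 0.45). *xrcc5*, which encodes Ku80 of the end-binding Ku dimer, had 34.9, 35.9 and 22.2 CPM in *il26*-/- GF and 34.8, 31.0 and 28.8 CPM in WT GF. Replicate 3 was the lowest library of each group, and the difference on the log2 scale was -0.02 (95% confidence interval -0.45 to 0.41). *xrcc4*, the partner of *lig4*, had 3.69, 4.52 and 4.97 CPM in *il26*-/- GF and 3.45, 3.95 and 5.15 CPM in WT GF. *xrcc6*, the gene of the other Ku subunit, was listed at 0 in every library.

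Among the damage kinases and sensors, *chek1* and *chek2* carried 2 of the 3 widest ranges of the list, the other being that of *fancg*. *chek1*, the kinase that restrains S phase and entry into mitosis, had 3.69, 2.91 and 6.16 CPM in *il26*-/- GF, against 1.48, 1.52 and 6.98 CPM in WT GF. The libraries spanned 4.50-fold, with replicate 3 the highest of each group. The log2 fold change of 0.29 (SE 0.62) therefore had an interval of -1.17 to 1.75. *chek2*, the kinase activated by breaks through both strands, had 1.84, 1.61 and 1.76 CPM in *il26*-/- GF and 1.18, 1.01 and 3.20 CPM in WT GF. Its *il26*-/- GF libraries were close together and lay between WT GF replicates 1 and 2 and WT GF replicate 3 (log2 fold change -0.11, SE 0.45).

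*mdc1*, the scaffold that binds phosphorylated H2AX at breaks, had the smallest p of this pathway, 0.102. It had 24.7, 21.1 and 26.9 CPM in *il26*-/- GF, against 17.2, 18.1 and 23.9 CPM in WT GF, and WT GF replicate 3 again lay within the *il26*-/- GF range (log2 fold change 0.29, SE 0.16, 95% confidence interval -0.07 to 0.65). *topbp1*, an activator of the ATR kinase, had 9.96, 7.76 and 9.05 CPM in *il26*-/- GF and 5.72, 6.23 and 11.2 CPM in WT GF. *mre11a* and *nbn*, of the complex that first binds broken ends, had log2 fold changes of -0.03 and -0.03, with intervals of -0.41 to 0.35 and -0.33 to 0.26. *atm*, *atr*, *rad50* and *blm* were absent from the table.

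WT GF replicate 3 ranked above the other WT GF libraries in most of these genes, but not evenly over the pathways. It was the highest of the 3 WT GF libraries for 22 of the 31 members, against 4065 of the 11062 genes tested. It was the highest of all 6 libraries for 14 members, against 1802 of the 11062 genes. The 22 members were all 8 Fanconi genes, both mismatch repair genes, all 6 kinases and sensors, 4 of 6 base excision genes, 1 of 6 nucleotide excision genes and 1 of 3 end joining genes. WT GF replicates 1 and 2 lay below all 3 *il26*-/- GF libraries for 14 of 31 members, against 1577 of 11062 genes. The median SD of log2 CPM among WT GF libraries was 0.64 for the Fanconi genes and 0.06 for the nucleotide excision genes, where it was 0.17 over all genes. Among *il26*-/- GF libraries the same median was 0.32 for the Fanconi genes and 0.13 for the nucleotide excision genes, where it was 0.18 over all genes. *fanci* and *ercc4* had similar counts, and their ranges of log2 CPM were 1.35 and 0.35. That pair covers only 1 gene of each pathway. The Fanconi genes *fance*, *fancg*, *fancl* and *fancc* had as few as 5, 11, 8 and 14 counts in a library, and low counts widen the spread.

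The mean score of the 31 members, in which every gene's log2 CPM is set against its own average and the genes are then averaged, was 0.14, -0.05 and 0.12 in *il26*-/- GF, against -0.25, -0.25 and 0.28 in WT GF. The group means were 0.07 ± 0.10 in *il26*-/- GF and -0.07 ± 0.31 in WT GF (SD, n = 3 each), a difference of 0.14 that is smaller than the SD among WT GF libraries. The score of the Fanconi genes was 0.13, -0.10 and 0.32 in *il26*-/- GF, against -0.47, -0.47 and 0.59 in WT GF. That of the kinases and sensors was 0.18, -0.08 and 0.23 in *il26*-/- GF, against -0.43, -0.41 and 0.50 in WT GF. In both, WT GF held the 2 lowest libraries and the highest. The nucleotide excision score was 0.08, -0.06 and -0.05 in *il26*-/- GF and 0.10, 0.03 and -0.11 in WT GF, without that arrangement. A second list, of 11 other tested nucleotide excision genes that were not members, did have that arrangement. Its scores were 0.09, -0.02 and 0.03 in *il26*-/- GF, against -0.13, -0.08 and 0.11 in WT GF.

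**Figure D2:**
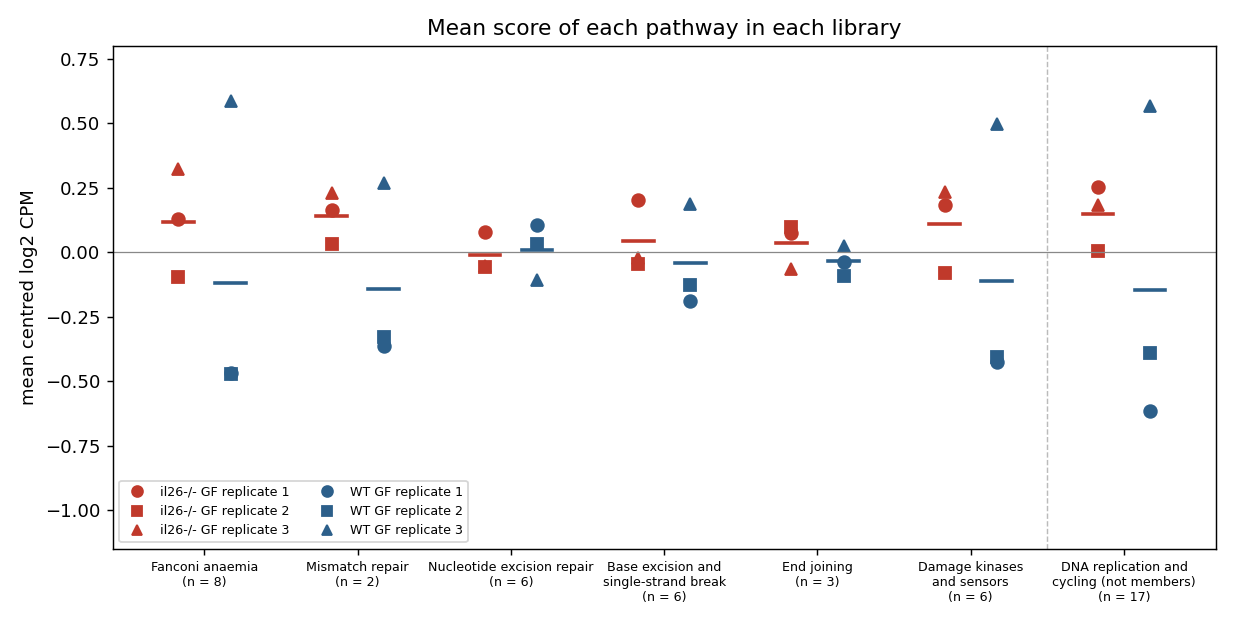
Mean centred log2 CPM (vertical axis) of the genes tested in each pathway, with the number of genes below each name; points are libraries, *il26*-/- GF in red to the left and WT GF in blue to the right, and bars are group means. In the Fanconi, mismatch repair and kinase groups WT GF replicates 1 and 2 lie below every *il26*-/- GF library and WT GF replicate 3 above every one, as in the DNA replication and cycling genes at the far right, which are not members.

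A list of DNA replication and cycling genes showed the same arrangement of libraries. Its 17 tested genes of 22 had a score of 0.25, 0.00 and 0.18 in *il26*-/- GF, against -0.61, -0.39 and 0.57 in WT GF. Their summed level was 610.2 to 736 CPM in *il26*-/- GF and 403 to 844 CPM in WT GF. WT GF replicate 3 was the highest WT GF library for 17 of the 17, and WT GF replicates 1 and 2 lay below all *il26*-/- GF libraries for 16 of the 17. None of the 17 had an unadjusted p under 0.05, and *cdk1*, *plk1* and *cdc6* were listed at 0. The part of cycling cells in the members' values was not tested, and in whole guts more cells of a type cannot be told apart from more RNA per cell. Some markers of other tissues differed too by unadjusted p. Of 9 tested skeletal muscle genes of 12 fixed, 7 were higher in *il26*-/- GF with an unadjusted p under 0.05, where 3.06% of all genes were. The log2 fold change was above 0 for 8 of the 9 and below 0 for 1, at -0.63. The summed level of the list was 603 to 942 CPM in *il26*-/- GF and 389 to 786 CPM in WT GF. Of the 9 muscle genes, 6 lay above without overlap, against 4.81% of all genes. Their score was 0.37, 0.83 and 0.08 in *il26*-/- GF, against -0.39, -0.48 and -0.40 in WT GF. No muscle gene passed the adjustment over all genes, and the part of muscle in the members' values was not tested. Of 10 neuronal markers, 9 had a log2 fold change below 0, 3 lay below without overlap, against 4.83% of all genes, and 2 had an unadjusted p under 0.05, against 2.27% lower over all genes (0 with scaling by total counts, and 0 without *il26*-/- GF replicate 2, WT GF replicate 1 or WT GF replicate 2). Neuronal markers summed to 122 to 138 CPM in *il26*-/- GF and 133 to 153 CPM in WT GF, and their part in the members' values was not tested either. Gut epithelial markers summed to 17152 to 18852 CPM in *il26*-/- GF and 17444 to 21936 CPM in WT GF, so the labelled tissue was present in every library. Of 11 tested epithelial genes, 1 was lower with an unadjusted p under 0.05, against 2.27% of all genes. In that list 1 gene lay below without overlap, against 4.83% of all genes. Other organs were present too. Exocrine pancreas markers summed to 41103 to 56084 CPM in *il26*-/- GF and 47112 to 66886 CPM in WT GF. Hepatocyte markers summed to 39392 to 48951 CPM in *il26*-/- GF and 42932 to 54424 CPM in WT GF. All 11 tested pancreas genes had a log2 fold change below 0, and 6 of 9 hepatocyte genes above. No gene of either list had an unadjusted p under 0.05. Among erythrocyte and leukocyte markers, 1 of 5 tested genes in each list was lower with an unadjusted p under 0.05, against 2.27% of all genes. Without overlap, 1 erythrocyte gene lay below and 1 leukocyte gene above, against 4.83% and 4.81% of all genes.

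A division by replicate number also ran through some of the genes. For 9 of the 31 members both libraries numbered 3 were higher than the other 4 libraries (29.0%, against 1445 of the 11062 genes tested, or 13.1%): *fanca*, *fancg*, *fanci*, *fancl*, *msh6*, *lig1*, *xrcc4*, *chek1* and *mre11a*. For *xpc* and *xrcc5* both were lower than the other 4 (6.45% of members, against 1327 of the 11062 genes). The photolyase genes, which encode enzymes that reverse ultraviolet lesions directly with the energy of visible light, were divided in the same way as *xpc*. *cry5*, the 6-4 photolyase gene, had 24.0, 24.1 and 6.29 CPM in *il26*-/- GF and 34.6, 34.4 and 6.07 CPM in WT GF. *cry-dash* had 18.3, 17.7 and 5.28 CPM in *il26*-/- GF and 25.1, 21.7 and 5.22 CPM in WT GF. *cpdp*, the gene of the photolyase for pyrimidine dimers, named after its values were seen, had 54.4, 47.5 and 31.0 CPM in *il26*-/- GF and 60.8, 57.1 and 31.0 CPM in WT GF. Both libraries numbered 3 were the lowest in all of these genes, whichever the genotype. Among replicates 1 and 2, *xpc* and the photolyase genes also lay apart by genotype, with both WT GF libraries above both *il26*-/- GF libraries. Of the 9 members named above, *fanca*, *fancg*, *fanci*, *msh6*, *lig1* and *chek1* had WT GF replicates 1 and 2 below all *il26*-/- GF libraries. What same-numbered libraries have in common is not stated in the labels.

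**Figure D3:**
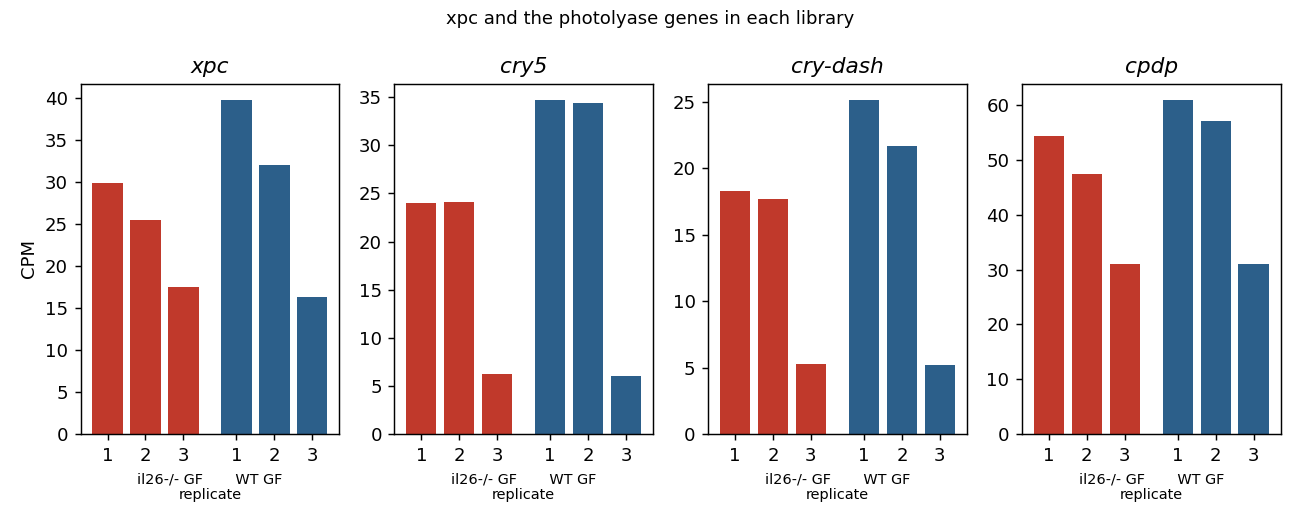
TMM-scaled CPM (vertical axis, from 0) of *xpc* and of the photolyase genes *cry5*, *cry-dash* and *cpdp* in each library; bars are libraries, *il26*-/- GF in red to the left and WT GF in blue to the right, each by replicate number. Replicate 3 is the lowest bar of each group in every panel, at 17.6 CPM in *il26*-/- GF and 16.3 CPM in WT GF for *xpc*.

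Because WT GF replicate 3 ranked highest in WT GF for most of these same genes, each count was also taken without it. The library was picked by the values that were then tested. The p-values, intervals and counts without it therefore describe how far the result rests on that library. They are not a separate test of the members. In the fit of 3 *il26*-/- GF against 2 WT GF libraries, 13 of the 31 members had an unadjusted p under 0.05, of which 12 were higher in *il26*-/- GF and 1 was lower. Among all genes of the table, 10.2% passed that threshold in this fit, 5.82% higher and 4.34% lower. No member passed the adjustment over all genes, as 0.00897% of all genes did, and the smallest adjusted p of a member was 0.269. Leaving out any of the other 5 libraries left 0 members under the threshold. The 12 higher genes were *fanca*, *fancc*, *fancd2*, *fancg*, *fanci*, *msh6*, *pms1*, *lig1*, *chek1*, *chek2*, *topbp1* and *mdc1*. The largest log2 fold change was that of *chek1*, 1.48 (SE 0.37, adjusted p = 0.302), and the smallest p that of *lig1* (log2 fold change 0.89, SE 0.17, adjusted p = 0.269). *xpc* was the lower gene (log2 fold change -0.57, SE 0.22, adjusted p = 0.444). In the same fit 14 of the 17 replication and cycling genes were higher with an unadjusted p under 0.05. With number 3 left out of both groups, a setting added after the data had been seen, 10 members were higher and *xpc* lower with an unadjusted p under 0.05, where 11.5% of all genes passed. No label sets WT GF replicate 3 apart, so the values from all 6 libraries remain the main ones.

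**Figure D4:**
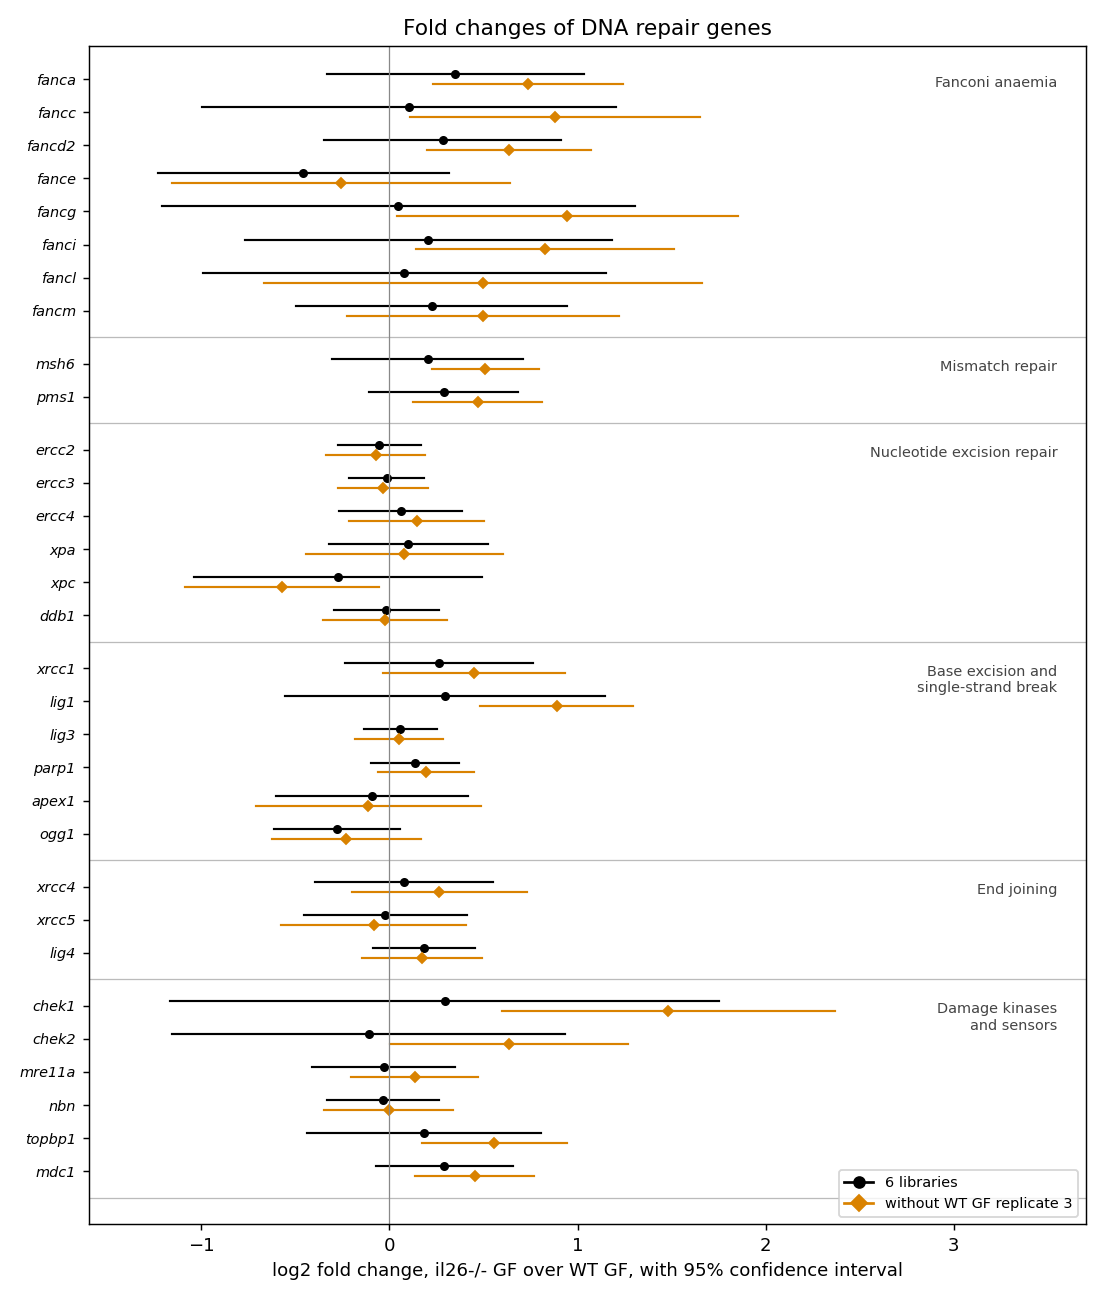
Log2 fold change of *il26*-/- GF over WT GF (horizontal axis) with its 95% confidence interval for each tested gene, from all 6 libraries (black circles) and without WT GF replicate 3 (orange diamonds). Every black interval includes 0. The library left out was picked by its values in these genes, so the orange intervals are descriptive. Of these, 13 do not include 0, among them those of *lig1* and *chek1*, while *ercc2*, *ercc3*, *ddb1*, *lig3* and *nbn* stay near 0 in both.

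The other repair genes of the same pathways and of homologous recombination, translesion synthesis and direct reversal were read out in the same way. Of 100 symbols, 57 were tested, 41 with a log2 fold change above 0 and 16 below (median 0.06), and 0 had an unadjusted p under 0.05 by edgeR's test. The 10 tested genes of homologous recombination had scores of 0.23, 0.01 and 0.28 in *il26*-/- GF, against -0.74, -0.36 and 0.58 in WT GF. Direct reversal was arranged otherwise, and its 4 tested genes all had a log2 fold change below 0 (median -0.29). Their scores were 0.15, 0.12 and -0.61 in *il26*-/- GF, against 0.61, 0.42 and -0.70 in WT GF. *alkbh3*, a demethylase of alkylated bases, had the smallest p of the 57 (log2 fold change -0.26, SE 0.15), with 6.64, 7.65 and 7.42 CPM in *il26*-/- GF, against 10.1, 8.66 and 7.50 CPM in WT GF. *nhej1*, *atrip* and *tdg.1*, with the smallest p of end joining, the damage response and base excision, had log2 fold changes of 0.26, 0.21 and 0.23. *faap24* of the Fanconi core, *poli* of translesion synthesis and *rad23b*, the partner of *xpc*, had log2 fold changes of 0.48 (SE 0.52), 0.15 (SE 0.19) and -0.09 (SE 0.09). Without WT GF replicate 3, 16 of the 57 were higher and 1 lower, *alkbh3*, with an unadjusted p under 0.05. Over the whole table, 5.82% of genes were higher and 4.34% lower by that measure in that fit. The library left out was the highest WT GF library for 37 of the 57, so these counts are a description and not a separate test. Of 9 tested p53 target genes of 12 fixed, 8 had a log2 fold change below 0 (7 with scaling by total counts, 5 without WT GF replicate 2), with a median of -0.19. In 1 of the 9 the unadjusted p was under 0.05, where 2.27% of all genes were lower by that measure: *sesn1*, which encodes a stress-induced sestrin and whose groups overlapped (log2 fold change -0.38, SE 0.14). That count was 0 without *il26*-/- GF replicate 1, WT GF replicate 1 or WT GF replicate 2, and no p53 target passed the adjustment over all genes. *mdm2*, the ubiquitin ligase of p53, lay below without overlap, as 4.83% of all genes did, with 15.9, 22.5 and 23.7 CPM in *il26*-/- GF, against 25.6, 32.1 and 24.1 CPM in WT GF (log2 fold change -0.38, SE 0.17, 95% confidence interval -0.79 to 0.02).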

How the data were processed

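Bulk RNA-seq libraries (Illumina TruSeq stranded mRNA, paired 100-base reads) were made from dissected guts of 3 *il26*-/- GF and 3 WT GF pools. Reads were aligned by the authors to danRer11, and raw counts per gene symbol were deposited for each library; the aligner, counting tool, annotation and strand setting are not given in the sources used here. From the counts, genes were filtered with filterByExpr (11062 of 15419 kept), scaled by TMM and tested with edgeR 4.0.16 (quasi-likelihood, no block, R 4.3.3), and p-values were adjusted by Benjamini-Hochberg over the whole table. The procedure was tested on simulated data. CPM used TMM-scaled totals, and log2 CPM a prior count of 2. Scores were not tested.

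The members and lists were chosen with earlier results of these data known. Every member is accounted for. The genes given in full followed a rule: the smallest p and the highest mean CPM in each pathway, every member without overlap or with an unadjusted p under 0.05, the 3 widest and 3 narrowest ranges, and the smallest p of each other repair list, of which some genes are not reported here; further members and genes were added after their values were seen. Alternatives were DESeq2 (1.42.0) size factors and test, upper-quartile and total-count scaling, a looser filter (1 count anywhere) and a stricter one (10 counts in each library), limma-voom (limma 3.58.1) with quality weights, thinning to the smallest total, the replicate number as a block, and leaving out each library. Promoter and protein sequences were not used here. Intervals for counts of 0 cover counting error only.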

Additional observations from a re-analysis of the deposited data

How the results depend on the processing

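No member passed an adjusted p of 0.05 under any alternative run. The count of members with an unadjusted p under 0.05, 0 with all 6 libraries, was between 0 and 13 when a library was left out, and the 13 came without WT GF replicate 3. It was 11 with number 3 left out of both groups, a setting added after the data had been seen, and 1 (*pms1*) after thinning to the smallest total, where 5.28% of genes passed. The count over the whole table, 589, was between 441 and 1133 when a library was left out (1133 without WT GF replicate 3), 1274 with number 3 left out of both groups and 890 with limma-voom; the cause was not tested. Scaled by total counts, 442 genes under that threshold were higher in *il26*-/- GF and 108 lower, against 338 higher and 251 lower with TMM.

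The replicate numbers were not taken to pair the libraries in the main fit, since the study states no block. The correlations of same-numbered deviations were positive, at 0.179, 0.0957 and 0.304. These values do not settle whether same numbers mark pairs. In 5 of 6 libraries the best correlation was with the same number, and *il26*-/- GF replicate 2 correlated best with WT GF replicate 1. With the replicate number as a block, 2 members (*fanca* and *mdc1*) had an unadjusted p under 0.05, with 788 genes (7.12%) over the whole table, 15 genes had an adjusted p under 0.05, against 1 without the block, and the log2 fold change of *chek2* was 0.059.

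Signs turned only for log2 fold changes near 0 or with wide intervals. With upper-quartile scaling *ddb1* was at 0.0063, *xrcc5* at 0.00079 and *ercc3* at 0.0091. With total counts only *ddb1* was at 0.065, *xrcc5* at 0.076, *ercc3* at 0.073, *ercc2* at 0.035 and *rad23b* at 0.0047. With limma-voom *xrcc5* was at 0.014 and *chek2* at 0.22. After thinning *ddb1* was at 0.0047, *ercc3* at 0.014, *ercc2* at 0.038 and *fancg* at -0.14. With number 3 left out of both groups *xrcc5* was at 0.11 and *chek2* at 0.62. With a library left out, the values ran from -0.57 to 0.014 for *xpc*, -0.14 to 0.049 for *ddb1*, -0.15 to 0.18 for *xrcc5*, -0.042 to 0.030 for *ercc3*, -0.11 to 0.00083 for *ercc2*, -0.32 to 0.94 for *fancg*, -0.084 to 1.48 for *chek1*, -0.38 to 0.64 for *chek2* and -0.0081 to 0.30 for *poli*. *fance*, *fancg*, *fancl* and *fancc* had fewer than 20 counts in at least 1 library of each group.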

Other observations

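The division of libraries by replicate number seen for *xpc* and the photolyase genes extended to other repair and clock genes, which were chosen after their values were seen. *neil1*, a glycosylase of oxidised bases, had 15.1, 13.9 and 13.6 CPM in *il26*-/- GF and 15.7, 16.1 and 13.0 CPM in WT GF. In *il26*-/- GF its replicate 3 was the lowest only by a small margin. *per2*, a clock gene known in zebrafish to be induced by light, had 87.3, 83.5 and 56.8 CPM in *il26*-/- GF and 109, 107 and 59.7 CPM in WT GF. *tefa*, a clock output transcription factor, had 123, 98.5 and 33.3 CPM in *il26*-/- GF and 142, 146 and 31.4 CPM in WT GF. The range was wider in the clock genes *per1a* and *nr1d1*. *per1a* had 19.3, 20.2 and 2.51 CPM in *il26*-/- GF and 41.4, 44.9 and 1.17 CPM in WT GF. *nr1d1* had 72.7, 175 and 9.62 CPM in *il26*-/- GF and 213, 268 and 7.83 CPM in WT GF. *arntl1a*, which encodes a BMAL activator of the clock, ran the other way, with 11.9, 10.6 and 22.9 CPM in *il26*-/- GF and 7.35, 10.4 and 22.6 CPM in WT GF. In each of these genes replicate 3 was at the same end of both groups. Among replicates 1 and 2, both WT GF libraries lay above both *il26*-/- GF libraries in *neil1*, *per2*, *tefa*, *per1a* and *nr1d1*. In *arntl1a* both WT GF libraries lay below both *il26*-/- GF libraries among replicates 1 and 2. The time of day at which guts were taken is not given in the sources used here, and no cause was tested.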
